A study of Mus musculus with 18 samples.

Results

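The cytoplasmic ribosomal protein genes measured here were the genes whose symbol starts with Rpl or Rps and a number, or equals Rpsa, Rplp0, Rplp1 or Rplp2, without the S6 kinases (Rps6k) and without annotated pseudogene symbols, and with at least 180 reads summed over all libraries. This rule gave 20 of the 23930 genes of the panel. It used the symbol and the summed count only. The study read RNA from CD4 and CD8 T cells sorted from mouse bone marrow with a targeted amplicon panel, in 18 libraries that form 6 groups of 3. The mice were C57BL/6 given zinc in the drinking water, pMT-10 given the same zinc water, and pMT-10 given plain water, for 30 days, with 3 mice of each kind. pMT-10 mice carry an IL-10 transgene behind a metallothionein promoter that zinc switches on. Such a promoter is not limited to T cells. Both C57BL/6 groups received zinc, and C57BL/6 mice without zinc were not analysed here. The labels give neither the ages of the mice nor which CD4 and CD8 libraries came from the same mouse.

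A ribosome consists of a small 40S subunit, which reads the mRNA, and a large 60S subunit, which joins amino acids. Each subunit is built on ribosomal RNA in the nucleolus from proteins that are needed in equal numbers. In mammals the mRNAs of these proteins typically begin with a C followed by a run of pyrimidines (the TOP motif), through which mTOR signalling and the binding protein Larp1 set their translation. Quiescent T cells hold few ribosomes, and activated T cells raise ribosome production before they divide.

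The members covered only part of the ribosome. Of 32 listed small subunit genes 9 had a row and 7 passed the minimum. Of 43 listed large subunit genes 6 had a row and 5 passed. Of 3 stalk genes only Rplp0 had a row. The other subunit genes, among them Rps6, Rps19, Rps25, Rpl5, Rpl10a, Rpl11, Rpl13a, Rpl38, Rpsa and Fau, were not analysed here. The 40S members included Rps3, Rps9, Rps14, Rps15 and Rps21, and the 60S members were Rpl4, Rpl8, Rpl30, Rpl32 and Rpl41. A further 6 members were paralogues of subunit genes, namely Rpl36al, Rpl39l, Rpl7l1, Rps27l, Rps4l and Rpl32l. Rps19bp1, a nucleolar protein that binds Rps19, matches the symbol rule but is no subunit. Just inside the minimum stood Rpl32l with 199 summed reads, and just outside stood Rps2 with 117 and Rpl22 with 113, followed by Rps4x with 77, Rpl3l with 7 and Rpl10l with 4. All 20 members passed the filter on low counts.

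The RefSeq promoter table (GRCm38.p6, the assembly that mm10 denotes) held 13 of the 20 members. The windows below show how starts differ among members, 5 of them abundant ones (averaging at least 1000 CPM) and the sixth Rpl41. They run from 15 bases before a start listed for the gene, and the capitals mark the start base and the next 4 bases. The RefSeq gene of Rps9 begins at 3703954, upstream of the start shown, and the other genes begin at the start shown. Of the abundant members found in the table, Rps21 was the only one with a listed start that read as a C followed by at least 4 pyrimidines.
Rps21 (chr2:180257364-180257393, plus strand): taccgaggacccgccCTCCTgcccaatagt
Rps9 (chr7:3704026-3704055, plus strand): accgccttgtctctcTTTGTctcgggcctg
Rps15 (chr10:80292416-80292445, plus strand): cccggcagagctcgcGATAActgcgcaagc
Rps3 (chr7:99483695-99483724, minus strand): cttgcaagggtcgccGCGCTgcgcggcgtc
Rpl4 (chr9:64173372-64173401, plus strand): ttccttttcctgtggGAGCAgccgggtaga
Rpl41 (chr10:128549154-128549183, minus strand): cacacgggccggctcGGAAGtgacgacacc

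A C with at least 4 following C or T bases stood at an annotated start of 2 of the 13 members, Rps21 and Rpl32l (15.4%), and of 813 of the 27025 genes in the table (3.01%). Within 250 bases before and 50 after the start, on either strand, the ETS core CCGGAAG was present in Rps21, Rpl41, Rps27l and Rpl39l (30.8%) and in 9.93% of all genes. The YY1 core AAGATGG was present in Rpl7l1 (7.69%) and in 7.28% of all genes, and TATAAA in Rplp0 and Rpl32l (15.4%) and in 15.7% of all genes. These counts describe annotated starts, which may lie some bases from the start used in T cells. A match is not a shown binding site.

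Total counts per library ran from 10546798 to 18519474. Il10, the transgene's product, stood at 16.6 to 26.0 CPM (read counts scaled to a common library size with TMM factors) in zinc-fed pMT-10 CD4 cells, against 1.40 to 8.24 CPM in the other CD4 groups, and at 3.20 to 22.4 CPM in zinc-fed pMT-10 CD8 cells, with no read in any other CD8 library. Cd4 stood at 1653 to 3404 CPM in CD4 and 0 to 5.55 CPM in CD8 libraries, and Cd8a and Cd8b1 together at 3509.9 to 5215 and 19.9 to 45.5 CPM in CD8 and CD4 libraries, so the sorts matched their labels. The zinc-fed libraries filled 1 sequencing chip and those without zinc the other, which leaves zinc and chip inseparable: they cannot be told apart. Y-linked genes summed to between 2866 and 5188 reads in C57BL/6 libraries and to between 0 and 8 in pMT-10 libraries, so strain and sex cannot be told apart either. Xist ran from 6 to 510 reads in C57BL/6 CD4 libraries, from 2 to 23 in C57BL/6 CD8 libraries and from 6117 to 18633 in pMT-10 libraries. The source of the Xist reads in C57BL/6 CD4 libraries was not tested.

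Ribosomal protein reads took a larger share of CD8 than of CD4 libraries in every kind of mouse. In CD4 cells the 20 members held 3.25, 3.88 and 3.22% of all reads in the 3 zinc-fed C57BL/6 libraries, 2.21, 2.20 and 2.37% in zinc-fed pMT-10, and 3.09, 2.98 and 3.06% in pMT-10 without zinc. In CD8 cells they held 5.53, 6.49 and 5.04% in zinc-fed C57BL/6, 4.10, 4.75 and 4.20% in zinc-fed pMT-10, and 5.91, 6.35 and 5.27% in pMT-10 without zinc. No CD8 library overlapped any CD4 library, and within each cell type zinc-fed pMT-10 lay below both control groups without overlap. The mean CD8 share was 1.65 times the CD4 share in zinc-fed C57BL/6 and 1.92 times in both pMT-10 groups. The mean share in zinc-fed pMT-10 was 0.656 of that in C57BL/6 for CD4 and 0.765 for CD8 cells. These shares are a description. They are relative to all reads of a library, and fewer cells of a type and less RNA per cell cannot be told apart in such bulk samples.

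**Figure D1:**
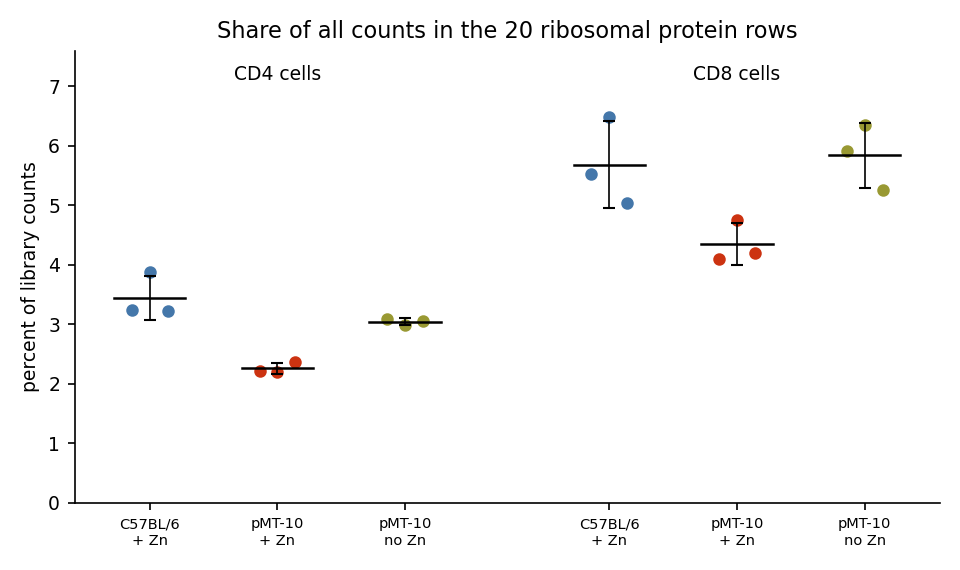
Percent of all library reads in the 20 ribosomal protein rows (vertical axis) for the 6 groups (horizontal axis). Points are libraries, wide lines group means and bars the SD of 3 libraries. CD8 libraries lie between 4.10 and 6.49%, all above the CD4 libraries, which lie between 2.20 and 3.88%, and zinc-fed pMT-10 is lowest in each cell type.

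A few rows made up most of this share. The 10 members that averaged at least 1000 CPM, among them Rps3, Rps9, Rps14, Rps15, Rps21, Rpl4, Rpl8 and Rpl32, held 98.3% of the members' reads. Rps15 ranked 9th of 23930 genes by summed reads and Rps9 10th. The stalk gene Rplp0 stood at 1.57 to 6.15 CPM. Each row is 1 amplicon, whose yield differs between genes, so these levels do not rank the genes by mRNA amount. Ribosomal protein genes also have many near-identical processed copies in the genome. Amplicon positions were not used here, so the rows of Rplp0, Rpl36al, Rpl39l, Rps4l, Rps27l and Rpl32l may share or miss reads of their close copies. The same may hold for other rows, among them Rpl41, which averaged 84.6 CPM.

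The first comparison set CD8 against CD4 cells within each kind of mouse. Most of the subunit genes were higher in CD8 cells, though Rpl41 and Rplp0 did not pass the test. Of the 20 members 12 rose in zinc-fed C57BL/6, 11 in zinc-fed pMT-10 and 11 in pMT-10 without zinc, and none fell (edgeR quasi-likelihood test, Benjamini-Hochberg adjusted p under 0.05 over 11316 genes). Among all genes tested, 9.28, 13.4 and 8.94% rose in these comparisons, and among the 90 genes averaging at least 1000 CPM 28.9, 27.8 and 34.4% did. These 90 genes include the 10 abundant members here and below, and all 10 rose in each kind of mouse. The median log2 change of the members was 0.60, 0.80 and 0.83, beside -0.02, -0.01 and -0.01 for all genes. The same 11 members rose in all 3 kinds of mice: all 7 of the 40S and Rpl4, Rpl8, Rpl30 and Rpl32 of the 60S. Their log2 changes lay between 0.53 and 1.42. The share of all genes that rose in all 3 kinds of mice was not computed.

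Among 40S genes, Rps3 lies at the mRNA entry of the small subunit. Its CD4 libraries stood at 3741, 4604 and 4461 CPM in zinc-fed C57BL/6, 3229.6, 2814 and 3687 in zinc-fed pMT-10, and 3841, 3587 and 3824 without zinc. Its CD8 libraries stood at 7455, 12515 and 6218, at 6096, 8828 and 5455, and at 8094, 12383 and 7461 CPM in the same order. Every CD8 library was above every CD4 library, and the second CD8 library of each group was the highest. Rps3 was 2.05, 2.09 and 2.48 times higher in CD8 than in CD4 cells (log2 1.03 ± 0.23, 1.07 ± 0.23 and 1.31 ± 0.23, SE, adjusted p = 0.0023, 0.0015 and 0.000252, edgeR).

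Rps15, a protein of the 40S head, stood at 5672 ± 623, 3624 ± 203 and 4659 ± 343 CPM in CD4 cells of zinc-fed C57BL/6, zinc-fed pMT-10 and pMT-10 without zinc, and at 9390.3 ± 547, 6221 ± 383 and 9027 ± 1379 CPM in CD8 cells (SD, n = 3 each). The cell types did not overlap in any kind of mouse, and the log2 changes were 0.73 ± 0.12, 0.78 ± 0.12 and 0.95 ± 0.12 (SE). Rps14, a 40S platform protein whose human counterpart is lost in the 5q- syndrome, rose by 0.53, 0.84 and 0.96 on the log2 scale. Rps9 rose by 0.56, 0.69 and 0.85, and Rps21 by 0.64, 0.82 and 1.15. In zinc-fed C57BL/6 Rps21 overlapped between cell types, since the third CD8 library stood at 2336 CPM and its second CD4 library at 2429 CPM.

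Among 60S genes, Rpl32 showed the largest rise in pMT-10 without zinc, from 1039, 962 and 937 CPM in CD4 to 2455, 2916 and 2467 CPM in CD8 cells (log2 1.42 ± 0.17, SE, edgeR adjusted p = 1.51e-06). It rose by 0.98 in zinc-fed C57BL/6 and by 1.15 in zinc-fed pMT-10. Rpl4, which lines the tunnel through which the new protein leaves, rose from 4002, 4745 and 3713 to 8027, 7866 and 9351 CPM in zinc-fed C57BL/6 (log2 1.02 ± 0.12, SE, edgeR adjusted p = 1.31e-06), and by 0.68 and 0.93 in the pMT-10 groups. Rpl8, a protein close to the peptidyl transferase centre, rose by 0.97, 0.88 and 1.08, and Rpl30 by 0.65, 0.87 and 0.86.

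Rpl41, the very small peptide at the contact between the subunits, passed in no kind of mouse. It stood at 65.2, 91.0 and 81.0 CPM in CD4 and 74.4, 86.8 and 59.9 CPM in CD8 libraries of the zinc-fed C57BL/6 mice, and the 2 cell types overlapped in all kinds of mice. Its log2 changes were -0.10, -0.15 and -0.02 (SE 0.16 each), with 95% intervals of -0.43 to 0.23, -0.48 to 0.18 and -0.35 to 0.31. The smallest rise among the 11 members that rose was 0.53, for Rps14 in zinc-fed C57BL/6. The 95% interval of that rise, 0.21 to 0.84, overlapped the interval of Rpl41 in the same mice. The test compared each gene between cell types, and the difference between Rpl41 and the other genes was not tested.

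Of the stalk gene, the paralogues and Rps19bp1, 1 row passed in zinc-fed C57BL/6 and none in the pMT-10 groups. Of all genes 9.28, 13.4 and 8.94% rose in these comparisons, so 1 row of so small a set is near the share of all genes. Rplp0, the base of the stalk that recruits elongation factors, stood at 4.10, 2.24 and 1.57 CPM in CD4 and 5.32, 5.51 and 6.15 CPM in CD8 libraries of the zinc-fed C57BL/6 mice (log2 1.10 ± 0.46, SE), which missed the threshold (edgeR adjusted p = 0.0952) and passed it without the first of these CD4 libraries (1.57, adjusted p = 0.0435). Rpl36al, a near copy of Rpl36a, rose from 13.2, 16.1 and 11.1 to 24.9, 17.0 and 28.3 CPM in zinc-fed C57BL/6 (log2 0.80 ± 0.24, SE, edgeR adjusted p = 0.0194), and had values of 0.28 and 0.33 in the pMT-10 groups. Rpl7l1, which acts in 60S assembly, had log2 values of 0.16, 0.35 and 0.20, and Rps27l, a target gene of p53, of 0.08, 0.35 and 0.22. Rpl39l had values of -0.07, 1.26 and 0.81, Rps4l of -0.80, 1.14 and -0.21, and Rpl32l of -0.23, 0.14 and 0.39, all with SEs of at least 0.51. Rps4l passed the threshold in zinc-fed pMT-10 when the second CD8 library was left out (1.54, adjusted p = 0.0444). Rps19bp1 had values of 0.42, 0.05 and 0.26.

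In zinc-fed C57BL/6 4 of these calls rested on single libraries. The call of Rps14 ended without the third CD4 or the second CD8 library (log2 0.41 and 0.39), that of Rps21 without the first CD4 or the second CD8 library (0.57 and 0.32), that of Rps9 without the third CD4 library (0.45), and that of Rpl36al without the first or the third library of either cell type (0.64 to 0.79). In both pMT-10 groups all 11 calls remained under every alternative tried.

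**Figure D2:**
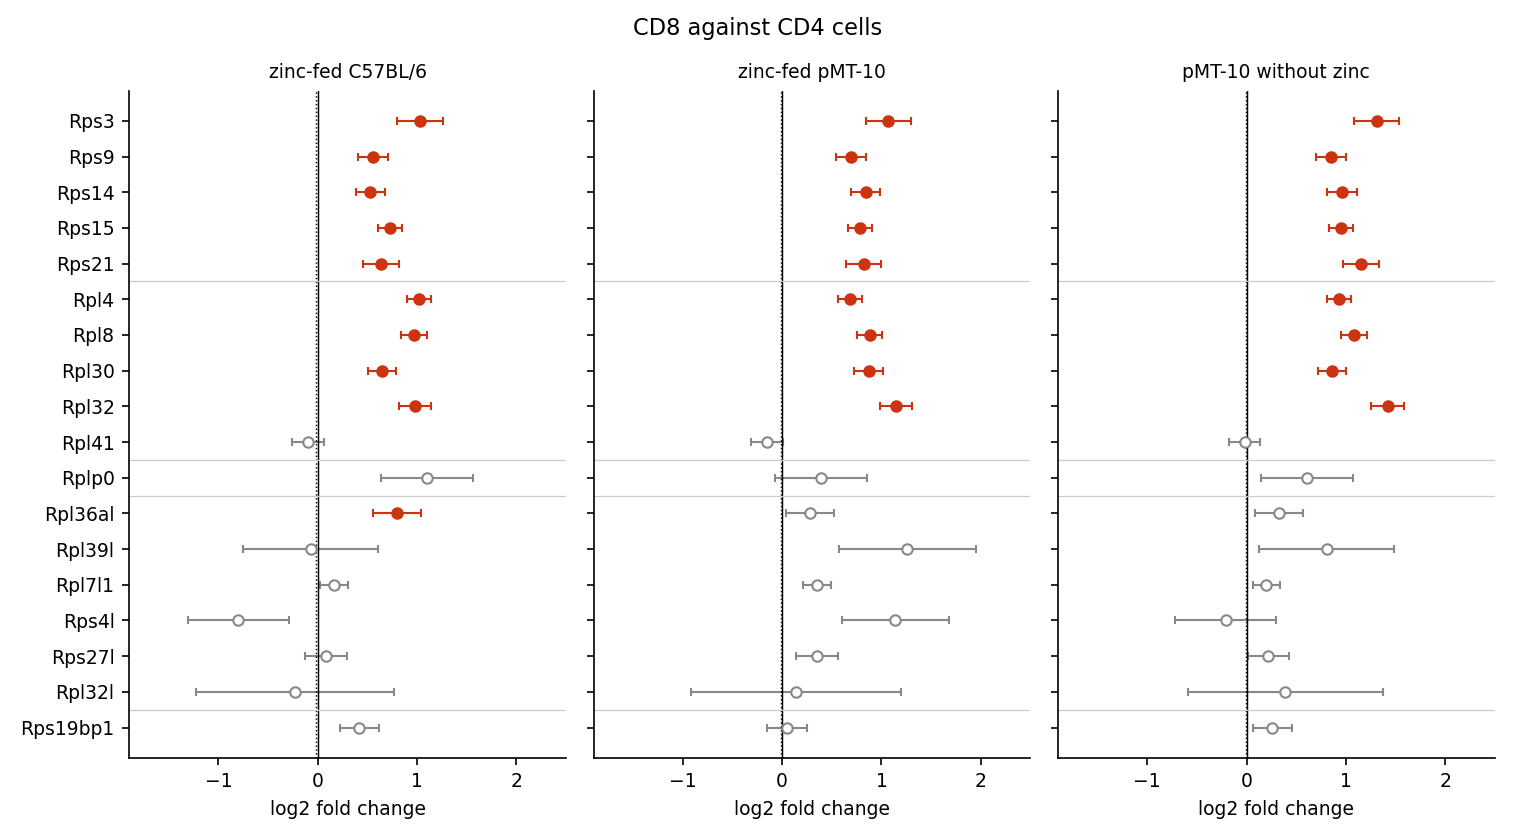
Fitted log2 fold change of CD8 against CD4 cells (horizontal axis) for 18 members (rows, grouped as 40S, 60S, stalk, paralogues and Rps19bp1) in the 3 kinds of mice. Filled red points passed an adjusted p of 0.05, open grey points did not, bars are the SE, and the dotted line is the median of all genes. The subunit genes other than Rplp0 and Rpl41 lie between 0.53 and 1.42 in all 3 panels, while Rpl41 lies between -0.15 and -0.02.

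The second comparison set zinc-fed pMT-10 mice beside C57BL/6 mice on the same water, first in CD4 cells. In CD4 cells 10 of the 20 members fell and none rose (edgeR, adjusted p under 0.05). Of all genes tested 9.40% fell and 9.29% rose, and of the 90 genes averaging at least 1000 CPM 22.2% fell. Those 90 include the 10 abundant members, of which 8 fell. The members' median log2 change was -0.50, beside -0.05 for all genes, and 12 members lay lower without overlap between the groups, as did 18.8% of all genes. They included Rps9, Rps14, Rps15 and Rps21 of the 40S, Rpl8, Rpl30 and Rpl32 of the 60S, and the paralogue row Rps4l.

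Rps21 showed the largest fall among subunit genes. It stood at 1994, 2429 and 2203 CPM in zinc-fed C57BL/6 and 1367, 1112 and 1432 CPM in zinc-fed pMT-10 (0.590-fold, log2 -0.76 ± 0.18, SE, edgeR adjusted p = 0.00485). Rps14 stood at 2155, 2222 and 1694 against 1303, 1046 and 1396 CPM (log2 -0.70 ± 0.15, SE, adjusted p = 0.00237, edgeR). Rpl30, a protein at the subunit interface, stood at 240.4, 249 and 197 against 131, 146 and 148 CPM (log2 -0.69 ± 0.14, SE, adjusted p = 0.00163, edgeR). In all 3 genes every zinc-fed pMT-10 library lay below every C57BL/6 library.

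Rps15 was at 0.639 of its C57BL/6 level (log2 -0.65 ± 0.12, SE, edgeR adjusted p = 0.000569). The log2 changes of Rps9, Rpl32 and Rpl8 were -0.46, -0.51 and -0.50. Rps3 and Rpl4 had values of -0.40 (95% interval -0.87 to 0.08) and -0.20 (-0.44 to 0.04) that did not pass. Rpl41 lay the other way, at 104, 91.3 and 106 CPM in zinc-fed pMT-10 against 65.2, 91.0 and 81.0 CPM in C57BL/6 CD4 cells. Its groups did not overlap, and its log2 value of 0.34 (95% interval 0.01 to 0.67) did not pass the adjusted test (edgeR adjusted p = 0.142).

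Rps4l, which RefSeq classes as a transcribed pseudogene related to Rps4x, fell from 5.70, 8.64 and 4.32 to 1.44, 0.974 and 1.65 CPM (log2 -2.19 ± 0.54, SE, edgeR adjusted p = 0.00618). In CD4 cells without zinc it stood between, at 4.20, 3.25 and 1.84 CPM. The other paralogues did not pass, with log2 values of 0.50 for Rpl36al, -0.65 for Rpl39l, -0.23 for Rpl7l1, -0.15 for Rps27l and -1.34 for Rpl32l, and neither did Rplp0 nor Rps19bp1 (0.11 each, and at or just below 0 when scaled by library size alone).

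The second C57BL/6 CD4 library was the highest for Rps21, Rps14, Rpl30, Rps15, Rps9, Rpl32 and Rpl8, and without it 6 of the 10 calls were left. The calls that ended with its omission included those of Rps9, Rpl32 and Rpl8 (log2 -0.33, -0.38 and -0.40). Omission of the first zinc-fed pMT-10 library ended those of Rps9 and Rpl32 (-0.42 and -0.45), of the second those of Rps9 and Rpl32 (-0.43 and -0.44), and of the third those of Rps9 and Rpl8 (-0.51 and -0.44). Rps9 also lost its call without the first C57BL/6 library (-0.47). The calls of Rps14, Rps15, Rps21, Rpl30 and Rps4l remained in every alternative.

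The same comparison was made in CD8 cells. Rps15, Rpl4, Rpl8 and Rpl30 fell, 3 of them among the 10 abundant members, and no member rose. Of all genes 3.13% fell and 5.68% rose, and of the 90 abundant genes, members included, 16.7% fell. The members' median log2 change was -0.35, beside 0.00 for all genes. Rps15 stood at 8934, 9997 and 9240.3 CPM in zinc-fed C57BL/6 and 6222, 6604 and 5838 CPM in zinc-fed pMT-10 CD8 cells (log2 -0.59 ± 0.12, SE, edgeR adjusted p = 0.0026). Rpl8 stood at 3876, 4392 and 4137 against 2983, 2626 and 2677 CPM (-0.58 ± 0.13, SE, edgeR adjusted p = 0.0054). Rpl4 stood at 8027, 7866 and 9351 against 5532, 5249.5 and 6531 CPM (-0.54 ± 0.12, SE, edgeR adjusted p = 0.00439).

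None of these 3 genes overlapped between the groups, and 5 members lay lower without overlap, as did 11.4% of all genes. Rpl30 did overlap, at 444, 354 and 283 against 250, 234 and 292 CPM (-0.48, edgeR adjusted p = 0.0423). Its call ended without the first or second C57BL/6 library (-0.30 and -0.48) or the first or second zinc-fed pMT-10 library (-0.45 and -0.40). It also ended with scaling by DESeq2 size factors (edgeR adjusted p = 0.0503) or by library size alone (0.0759), and in a fit to these groups alone (0.167). The call of Rpl4 ended in the same fit (-0.53, edgeR adjusted p = 0.0511). Rps21 was not called (-0.57) but passed without the third C57BL/6 library (-0.79, adjusted p = 0.0053), and with DESeq2 (adjusted p = 0.0313). All 7 of the 40S genes had values below 0, from -0.59 to -0.30. Rpl41 again had a value above 0 (0.30, 95% interval -0.03 to 0.63).

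Rps15, Rpl8 and Rpl30 fell in both cell types, 30.0% of the CD4 calls and 75.0% of the CD8 calls. The share of all genes that fell in both was not computed, so these percentages have no background to be read against. Whether the change differed between cell types was tested as an interaction, and no member passed (edgeR). By DESeq2 none passed either. Of all genes 5.49% passed the edgeR test. Among the members Rps4l had the lowest edgeR adjusted p, 0.13 (interaction log2 1.94 ± 0.74, SE). The interaction of Rpl4, which passed in CD8 and not in CD4 cells, was -0.34 ± 0.16 (SE, edgeR adjusted p = 0.237).

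**Figure D3:**
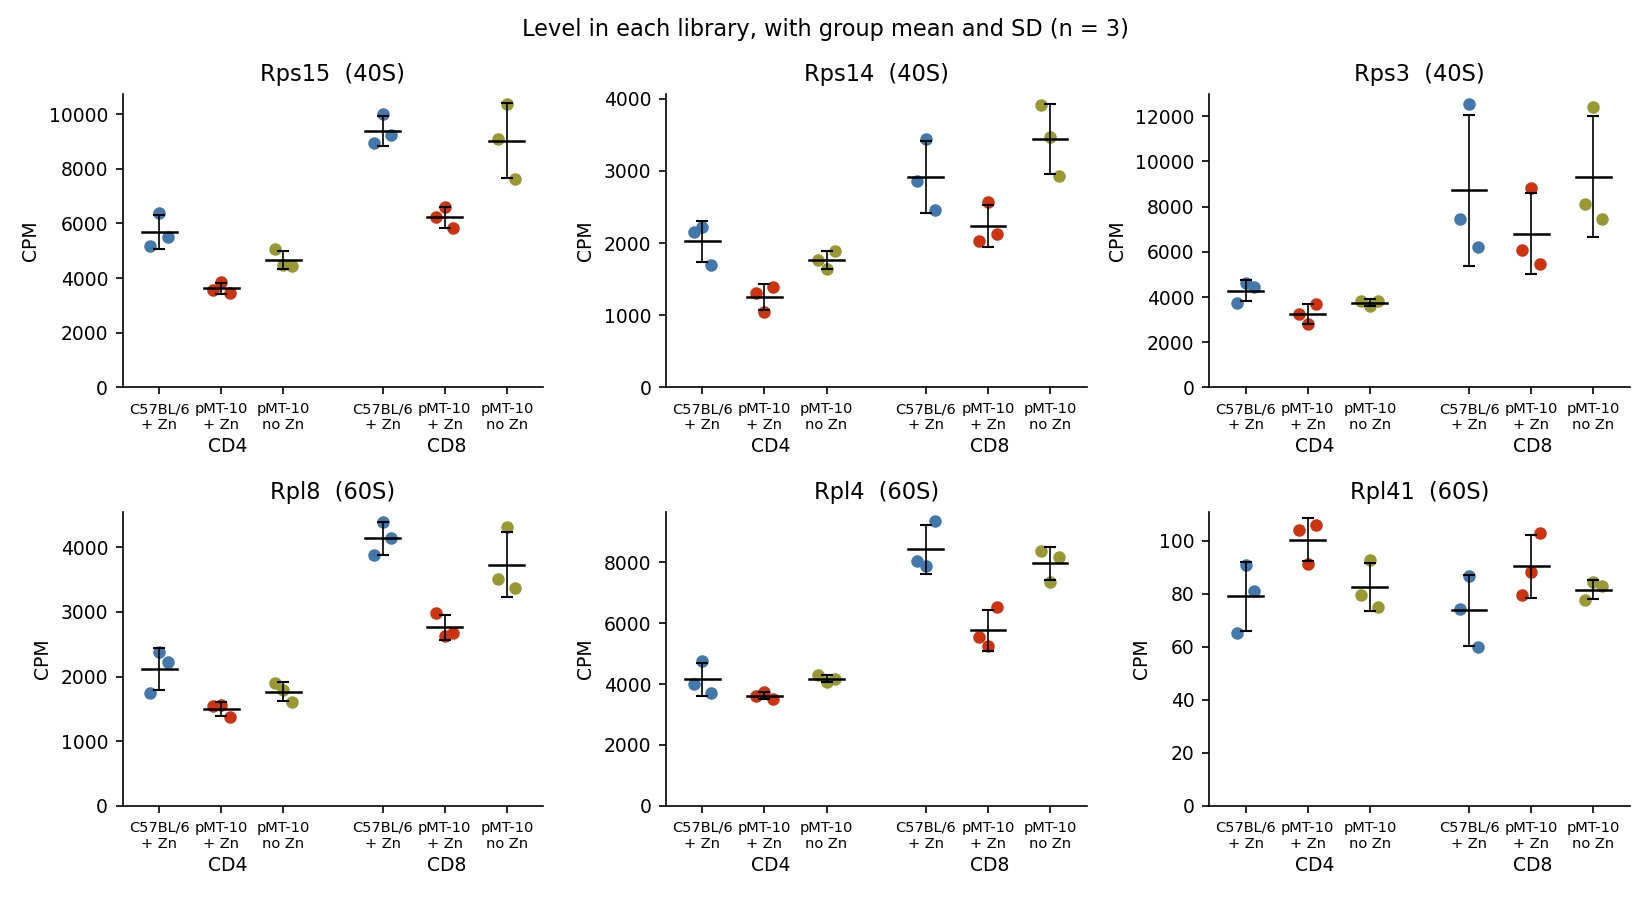
CPM (vertical axes, from 0) of 6 subunit genes in each library of the 6 groups (horizontal axes). Points are libraries, wide lines group means and bars the SD of 3 libraries. Rps15, Rps14, Rps3, Rpl8 and Rpl4 are higher in CD8 than in CD4 cells, with zinc-fed pMT-10 lowest among the means of each cell type, whereas Rpl41 lies between 59.9 and 106 CPM throughout, with its highest mean in zinc-fed pMT-10.

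The third comparison set zinc-fed pMT-10 against pMT-10 mice without zinc, which share the strain but not the chip. It uses the same zinc-fed pMT-10 libraries as the second comparison, so the results are not independent of it. In CD4 cells Rps14, Rps15 and Rpl30 fell, 3 of the 20 members and 2 of the 10 abundant ones, and no member rose. Of all genes 9.40% fell and 9.38% rose, and of the 90 abundant genes 11.1% fell. The members' counts were near these shares, so they do not set the members apart. The members' median log2 change was -0.25, beside -0.05 for all genes. Rps14 stood at 1768, 1645 and 1884 CPM without zinc and 1303, 1046 and 1396 with zinc (log2 -0.50 ± 0.15, SE, edgeR adjusted p = 0.0241). Rps15 stood at 5054, 4465 and 4457 against 3578, 3846 and 3448 CPM (-0.36 ± 0.12, SE, edgeR adjusted p = 0.038). Rpl30 stood at 193, 193 and 180.3 against 131, 146 and 148 CPM (-0.42 ± 0.14, SE, edgeR adjusted p = 0.0486).

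None of these 3 genes overlapped between the groups, and 11 members lay lower without overlap, as did 22.3% of all genes. The 3 calls were near the threshold. Without the first or the third library of mice without zinc, or without the first zinc-fed library, no member was called, and without any of the other CD4 libraries of either group 1 was. Scaling by DESeq2 size factors or leaving out the filter on low counts gave 1 call, a fit to these groups alone 5, and scaling by library size alone 8. That last scaling moved the median of all genes from -0.05 to -0.20.

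In CD8 cells Rps14, Rps15, Rps21, Rpl4 and Rpl8 fell, all 5 among the 10 abundant members, and no member rose. Of all genes 2.65% fell and 5.10% rose, and of the 90 abundant genes, members included, 14.4% fell. The members' median log2 change was -0.40, beside 0.00 for all genes. Rps21 stood at 3824, 4035 and 3032 CPM without zinc and 2106, 2438 and 2382 CPM with zinc (log2 -0.65 ± 0.18, SE, edgeR adjusted p = 0.0286). Rps14 stood at 3909, 3476 and 2934 against 2024, 2566 and 2121 CPM (-0.62 ± 0.15, SE, edgeR adjusted p = 0.0123). Rps15 stood at 9075, 10382 and 7626 against 6222, 6604 and 5838 CPM (-0.54 ± 0.12, SE, edgeR adjusted p = 0.0062).

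No library overlapped between the groups in any of the 5 genes, and 8 members lay lower without overlap, as did 11.2% of all genes. The log2 changes of Rpl4 and Rpl8 were -0.46 and -0.43. Rps15 was thus the 1 member that fell in all 4 comparisons of zinc-fed pMT-10 with a control group. These comparisons share libraries, and the share of all genes that fell in all 4 was not computed. Without the first library of either CD8 group 1 of the 5 calls was left, without the second or the third zinc-fed library 2, without the second library without zinc 3, and without the third library of that group 5, of which 1 was Rps9 (-0.53, adjusted p = 0.0483) in place of Rpl4 (-0.44, adjusted p = 0.0573). A fit to the 2 groups alone gave 2 calls.

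**Figure D4:**
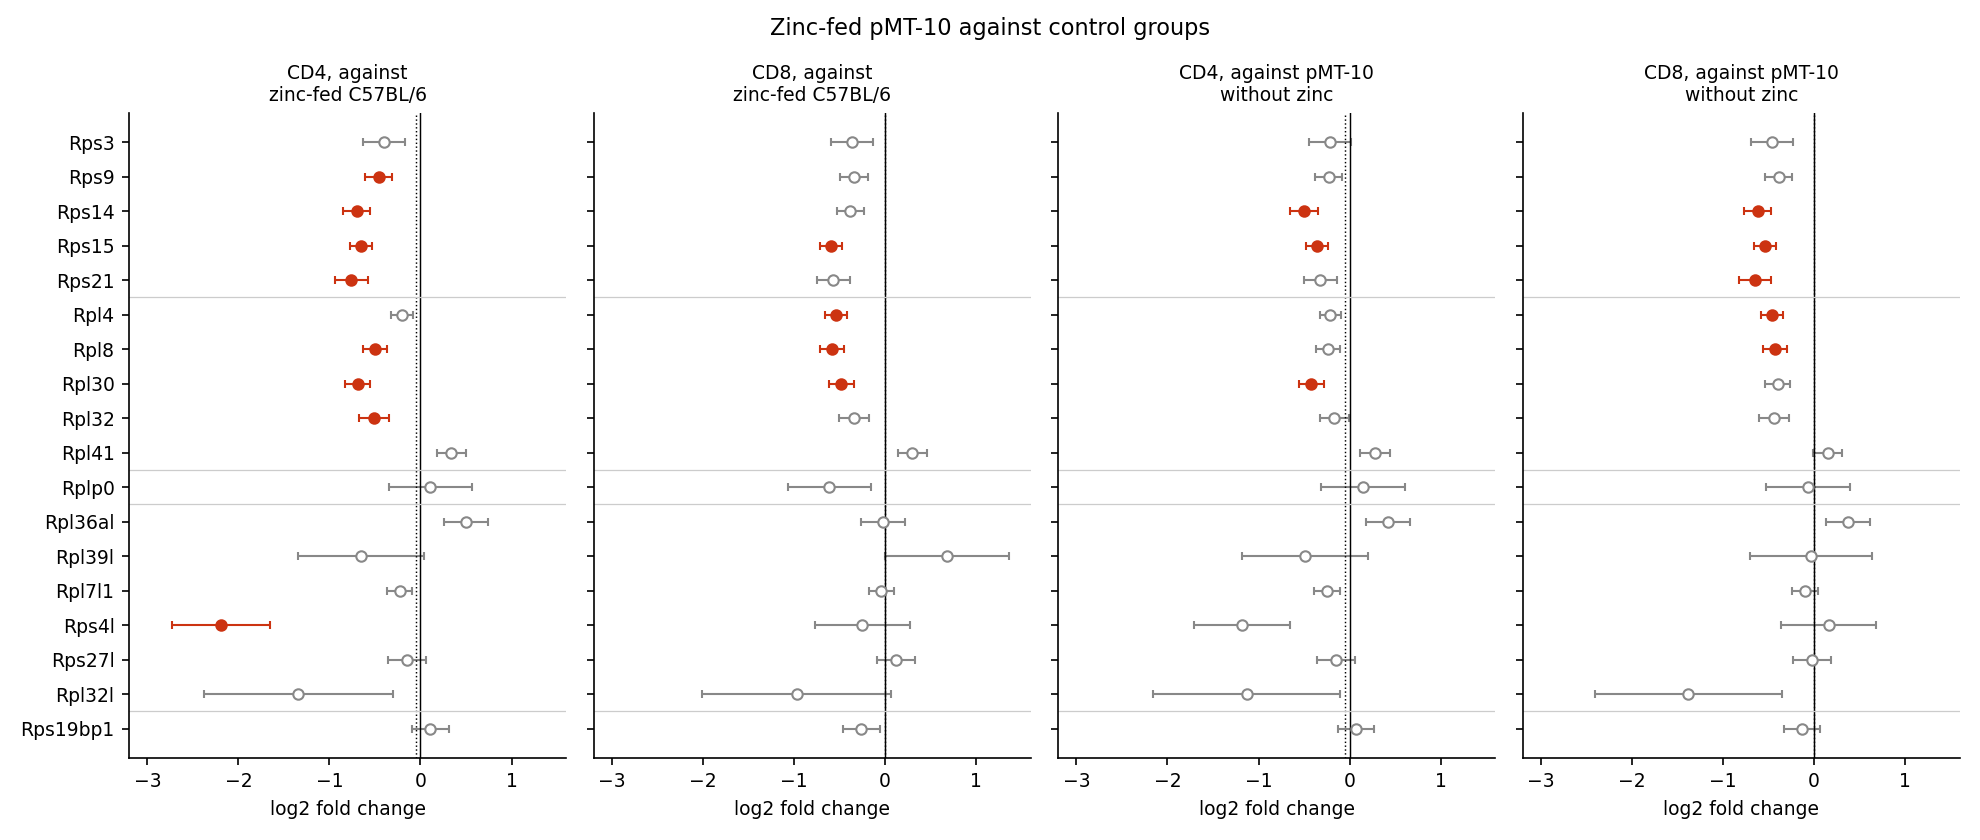
Fitted log2 fold change of zinc-fed pMT-10 against C57BL/6 (zinc-fed) and against pMT-10 without zinc (horizontal axes) for 18 members (rows), in CD4 and CD8 cells. Filled red points passed an adjusted p of 0.05, open grey points did not, bars are the SE, and the dotted line is the median of all genes. All called members lie below 0, and Rpl41 lies between 0.15 and 0.34 in the 4 panels without passing.

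The control groups were compared last. Between pMT-10 without zinc and zinc-fed C57BL/6 no member was called in either cell type by edgeR or by DESeq2, and 0.141% of all genes were called in CD4 and 0.0972% in CD8 cells. At an unadjusted p under 0.05 (edgeR), 3 members (Rps15, Rps21 and Rpl32) lay lower in CD4 cells without zinc and none differed in CD8 cells. The share of all genes at this looser threshold was not computed, so these counts have no background to be read against. Counted by groups without overlap, 5 members lay lower in CD4 cells without zinc, as did 5.48% of all genes. In CD8 cells no member did, beside 4.51% of all genes. The members' median log2 value was -0.20 in CD4 and 0.04 in CD8 cells, beside 0.00 for all genes. In CD4 cells 7 of 7 of the 40S genes lay below 0, from -0.44 to -0.19, and 3 of the 5 60S genes did. The mean CD4 levels of pMT-10 mice without zinc thus stood between those of the other groups for the 40S genes, without a call. Several of these genes were correlated within groups, so their signs are not independent.

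Other genes of ribosome production were read from lists of their own, whose counts are to be read against the shares of all genes that rose or fell. In CD8 against CD4 cells 9.28, 13.4 and 8.94% of all genes rose and 12.9, 14.7 and 12.8% fell, in the order of mice used above. In zinc-fed pMT-10 against C57BL/6 9.29% rose and 9.40% fell in CD4 and 5.68% rose and 3.13% fell in CD8 cells, and against pMT-10 without zinc 9.38 and 9.40% in CD4 and 5.10 and 2.65% in CD8 cells.

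Of 52 genes of ribosomal RNA processing and ribosome assembly, 40 were higher in CD8 than in CD4 cells of zinc-fed C57BL/6, 36 in zinc-fed pMT-10 and 34 in pMT-10 without zinc (median log2 0.74, 0.80 and 0.64, edgeR). Gnl3l was the 1 that was lower, in zinc-fed pMT-10 (-0.46). Rrp12, which acts in the export and maturation of pre-ribosomes, rose by 2.12, 1.67 and 1.48. Gnl3, the nucleolar GTPase nucleostemin, rose by 1.25, 1.96 and 1.16. In zinc-fed pMT-10 against C57BL/6 CD4 cells 3 of the 52 rose and 5 fell, with Rrp1b at 1.23 and Wdr12, a factor of 60S assembly, at -1.24 (median -0.20). These were 5.77 and 9.62% of the list, the first below and the second close to the share of all genes. In CD8 cells Rrp1b rose (0.80) and Ddx10 fell (-0.66). Against pMT-10 without zinc 2 rose and 5 fell in CD4 and 1 rose and 2 fell in CD8 cells (3.85 and 9.62%, and 1.92 and 3.85% of the list).

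Of 17 translation factors and other genes with TOP mRNAs, 10, 9 and 12 were higher in CD8 than in CD4 cells (median log2 0.52, 0.51 and 0.68). Eef1b2, a subunit of the factor that reloads eEF1A, rose by 1.12, 1.29 and 1.61, and Npm1, the nucleolar chaperone that is also on the assembly list, by 1.12, 1.44 and 1.35. Gas5, a non-coding TOP RNA, rose by 2.18 in zinc-fed pMT-10 from a level of 0.783 CPM. Vim was the 1 gene of this list that was lower in CD8 cells, in zinc-fed pMT-10 (-1.13). In zinc-fed pMT-10 against C57BL/6, Eef1b2 (-0.46) and Npm1 (-0.42) fell and Vim rose (1.24) in CD4 cells. Thus 11.8% of the list fell, near the share of all genes, and 5.88% rose, below that share. In CD8 cells Rack1, which sits on the 40S subunit, and Eif3f fell (-0.42 each), together 11.8% of the list. Against pMT-10 without zinc 3 rose and none fell in CD4 cells (17.6% of the list rose), and 1 rose and 2 fell in CD8 cells (5.88 and 11.8%), where 1 gene is 5.88% of the list.

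Of 20 tested regulators of ribosome production, Myc, which drives transcription of ribosome genes, was higher in CD8 than in CD4 cells in all kinds of mice (log2 2.19, 2.28 and 1.71). Its CD4 libraries stood at 65.1, 70.0 and 71.9 CPM in zinc-fed C57BL/6 and at 19.9, 77.8 and 17.4 CPM in zinc-fed pMT-10, which overlap. In all, 3, 5 and 2 regulators were higher (15, 25 and 10% of the list) and 1, 2 and 0 lower in CD8 cells (5, 10 and 0%). The share that was higher in pMT-10 without zinc was near that of all genes, and the shares that were lower were below it. Rps6kb2, an S6 kinase downstream of mTOR, rose in zinc-fed pMT-10 against C57BL/6 in CD4 (1.11) and CD8 cells (1.00). In CD4 cells Akt1 also rose (0.55), while Sesn1 (-2.07) and Pik3ip1 (-1.71), which restrain mTOR and PI3K signalling, fell. Eif4ebp1 (-1.02) and Rptor (-0.43) of this list fell too, and the direction of mTOR signalling was not tested. In CD8 cells Tsc2 fell (-0.57). Of the list 10% rose and 20% fell in CD4 cells, and 5% rose and 5% fell in CD8 cells. Against pMT-10 without zinc Sesn1 and Pik3ip1 fell in CD4 (-2.43 and -1.57) and in CD8 cells (-1.27 and -0.71), and Rptor fell in CD4 cells (-0.75). In the same comparison 3 regulators rose in CD4 cells, Rps6kb2 (1.19), Ddit4 (0.56) and Akt1 (0.51), and none in CD8 cells. Of the list 15% rose and 15% fell in CD4 cells, and 10% fell in CD8 cells.

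The mitochondrial ribosome is built from a separate set of proteins. Of 69 mitochondrial ribosomal protein genes, 10, 12 and 16 were higher in CD8 than in CD4 cells and none was lower (median log2 0.28, 0.30 and 0.35). These were 14.5, 17.4 and 23.2% of the list, and in zinc-fed pMT-10 the share was near that of all genes, 13.4%. Mrps18b rose by 0.82, 1.22 and 0.81, and Mrpl30 by 0.90 in zinc-fed C57BL/6 and 1.15 in pMT-10 without zinc. In zinc-fed pMT-10 against C57BL/6 2 rose and 4 fell in CD4 cells (Mrpl4 0.74, Mrpl52 0.60, Mrps27 -0.72, Mrps18a -0.67), 2.90 and 5.80% of the list and so below the shares of all genes, and Mrpl30 was the 1 that fell in CD8 cells (-0.56).

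Within groups the abundant members did not vary as 1 block. After group means were removed, the median Pearson r over the 45 pairs of the 10 members averaging at least 1000 CPM was 0.46 across 18 libraries. Over all pairs of the 90 genes at that level, these members included, the median was 0.07. The values share library and depth and are a description. Rps3, Rpl32 and Rps21 were correlated with each other at r of 0.82 to 0.90, and Rps14, Rps9 and the paralogue Rps27l at 0.78 to 0.85. Rps15 and Rpl8 gave 0.77. Rpl4 stood against Rps3 at -0.58. The members with the largest SD of log2 CPM within groups were the low rows Rpl39l (0.91), Rpl32l (0.62) and Rps4l (0.52). Among abundant members it was largest for Rps3 (0.32) and smallest for Rpl4 (0.12).

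The second library of each CD8 group stood apart for some members. It was the highest of its group for Rps3, Rps15, Rps21 and Rpl32 in all 3 CD8 groups, and the lowest for Rpl4. Eef2 was also lowest there, at 7188, 5378 and 6796 CPM. The replicate number comes from the order of the records and ties no libraries together. Without these 3 libraries, 10, 12 and 11 members rose in CD8 against CD4 cells in the order above, and in CD8 cells 3 fell in zinc-fed pMT-10 against C57BL/6 and 4 against pMT-10 without zinc.

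**Figure D5:**
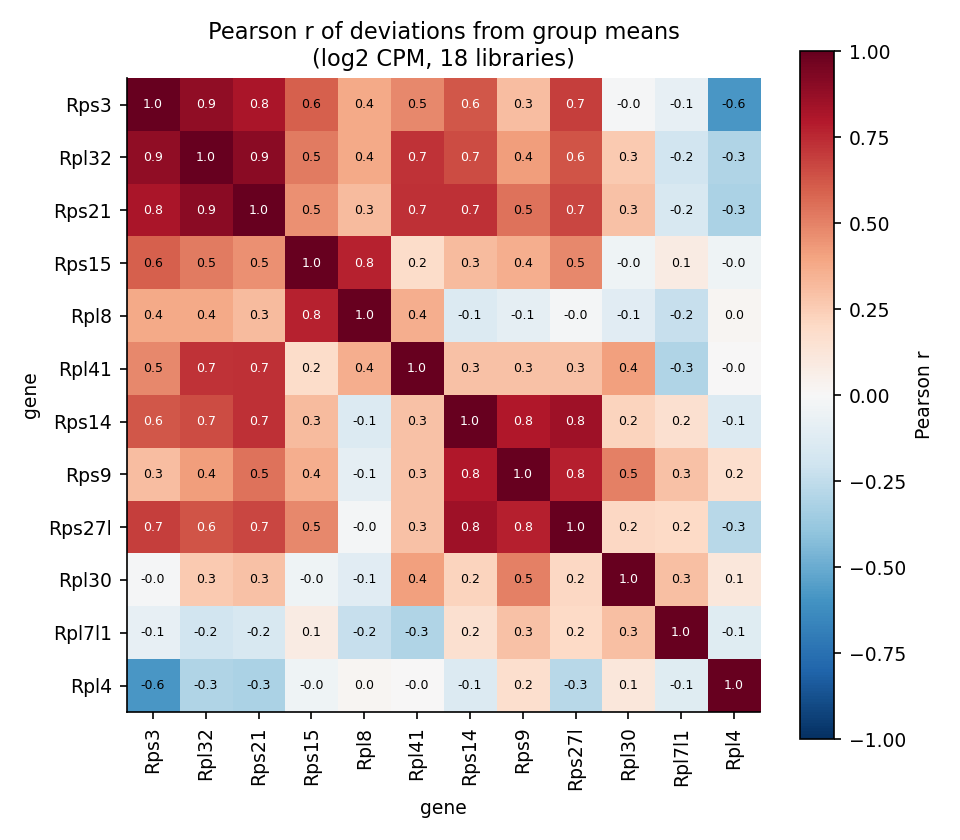
Pearson r between 12 members averaging at least 50 CPM (rows and columns), computed over 18 libraries from log2 CPM after removal of group means. Red cells are positive and blue cells negative, and the printed values are r to 1 decimal. Rps3, Rpl32 and Rps21 form the strongest block (0.82 to 0.90), Rps14, Rps9 and Rps27l the next (0.78 to 0.85), and Rpl4 lies at -0.58 with Rps3.

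Markers of other cells were low beside those of T cells, and some moved with the groups. Monocyte and macrophage markers (5 of 6 listed genes had a row) summed to 153 to 192 CPM in zinc-fed pMT-10 CD4 cells, 53.2 to 73.8 in zinc-fed C57BL/6 and 67.1 to 102 without zinc, with Cd14 at 0 in the first and Adgre1 at 0 in the second. In CD8 cells they summed to at most 27.9 CPM. NK cell markers (4 of 4) summed to 6.44 to 15.6, 38.3 to 48.5 and 165 to 189 CPM in the same CD4 groups and to between 6.48 and 44.5 CPM in CD8 cells, with Ncr1 at 0 in both zinc-fed pMT-10 groups. B cell markers (4 of 5) summed to at most 51.4 CPM, with Pax5 at 0 in every group. Neutrophil (7 of 7) and erythroid markers (4 of 7) stayed at or below 5.67 CPM. Platelet markers (4 of 4) stayed at or below 3.67 CPM except in 1 zinc-fed pMT-10 CD4 library at 156 CPM. T cell identity genes (9 of 10) summed to 8488 to 10717 CPM in zinc-fed pMT-10 CD4 cells and to between 5342 and 6999.7 CPM in the other groups. The part of these cells and of this difference in the ribosomal protein results was not tested.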

How the data were processed

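RNA came from 18 libraries of T cells, CD4 or CD8, sorted from bone marrow, and was read with an Ion AmpliSeq mouse transcriptome panel, per the labels' protocols. What the authors deposited is the raw count of reads for each amplicon (1 per gene, 23930 in all), in 1 table per chip, without any scaling. The genome build is mm10, per the submitters' processing notes. Which aligner and counter were used is not given in the sources used here. Every column was mapped to a sample by its chip and barcode. No molecular identifiers are named, so PCR copies count as reads. The labels number no replicates, so replicates are named in record order.

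Both tables were joined, filtered with filterByExpr (11316 genes left) and analysed in edgeR 4.0.16 (R 4.3.3), with TMM factors and the robust quasi-likelihood test on 6 group means over 18 libraries. "Rose", "fell" and "called" mean an adjusted p under 0.05 (Benjamini-Hochberg, all tested genes together). SE is the fitted log2 change divided by the square root of F, intervals use the t quantile at the fitted degrees of freedom, and folds are ratios of mean CPM. The script was tested on simulated data. Alternatives were DESeq2 1.42.0, other scalings (among them TMM factors set without the members), no filter, a fit to the compared groups alone and leaving out each library. Leaving out the second library of each CD8 group was added after seeing the data.

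The members, gene lists and tests were chosen with earlier results of these data known. The rule for named genes took, per comparison, the 5 called members with the largest rise and fall, all paralogues, stalk genes and Rps19bp1, a set with textbook roles, the 3 members with the largest SD within groups, and, for each other list, the 2 called genes with the largest change in each direction. Other members, and Eef2, Eif4ebp1 and Rptor, were named after their values were seen. Exact permutation tests of paralogue-to-partner ratios were planned and could not be run, as no pair had enough counts in both rows. Some genes are not reported here by name; counts and summed shares include them.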

Additional observations from a re-analysis of the deposited data

How the results depend on the processing

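Of 56 called member results 38 kept their call under every alternative, 18 lost it under at least 1, and 0 reversed. Of 144 results that were not called, 10 were called under at least 1 alternative and 52, most of them close to 0, changed sign. Calls kept throughout numbered 8, 11 and 11 for CD8 against CD4 cells in zinc-fed C57BL/6, zinc-fed pMT-10 and pMT-10 without zinc, 6 and 2 for zinc-fed pMT-10 against C57BL/6 in CD4 and CD8 cells, and 0 in both cell types against pMT-10 without zinc. With 1 library left out, the members lower in zinc-fed pMT-10 numbered 6 to 10 (CD4) and 3 to 5 (CD8) against C57BL/6, and 0 to 1 (CD4) and 1 to 5 (CD8) against pMT-10 without zinc. A fit to the compared groups alone gave 2 in CD8 cells against either control and 5 in CD4 cells against pMT-10 without zinc. In that CD4 comparison scaling by DESeq2 size factors gave 1, scaling by library size alone 8, and no filter on low counts 1. The members' median interaction of 0.18 became 0.34 with scaling by library size alone and lay between 0.01 and 0.26 with 1 library left out. Scaling by library size alone moved the median of all genes to -0.15 and -0.20 in the CD4 comparisons of zinc-fed pMT-10 with C57BL/6 and with pMT-10 without zinc, and to 0.21 in the interaction. The causes were not tested. No paired analysis was run because the labels give no replicate numbers and do not tie CD4 and CD8 libraries to a mouse. The tests of CD8 against CD4 cells treated all libraries as independent, though both cell types may come from the same mice. The effect of such pairing was not tested. Rows of a few CPM (Rplp0, Rpl39l, Rps4l, Rpl32l) had SEs of 0.46 or more, and differences of 1.10 (Rplp0, CD8 against CD4 cells of zinc-fed C57BL/6, edgeR adjusted p = 0.0952) and -1.18 (Rps4l, CD4 cells of zinc-fed pMT-10 against those without zinc, adjusted p = 0.132) did not pass at this depth.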
